A study of Mus musculus with 20 samples.

Results

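The nuclear-encoded subunits of oxidative phosphorylation were followed by ribosome footprints in mouse embryonic stem (ES) cells. They were taken from the table by gene name: every numbered NDUFA, NDUFB, NDUFC, NDUFS and NDUFV gene, Sdha to Sdhd, every UQCR gene, Cyc1, the COX4 to COX8 genes and every ATP5 gene. This gave 87 of the 22416 genes of the table, of which 38 belong by name to complex I, 4 to complex II, 9 to complex III, 19 to complex IV and 17 to the ATP synthase, complex V. Complexes I and II pass electrons from NADH and succinate to ubiquinone, complex III passes them on to cytochrome c and complex IV to oxygen. Complexes I, III and IV pump protons across the inner mitochondrial membrane, and the ATP synthase makes ATP from the returning flow. All but complex II also hold subunits encoded by mitochondrial DNA, while the nuclear-encoded subunits are made in the cytosol and imported. Naive ES cells are known to respire more than the primed cells that follow them.

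The study compared cells whose eIF2α can be phosphorylated, eIF2α+/+ (WT), with eIF2αA/A (KI) cells, in which alanine replaces the phosphorylated serine. Phosphorylated eIF2α lowers general translation initiation during stress. Cells of both genotypes were kept for 6 days in serum-free medium with either LIF/2i, which is leukaemia inhibitory factor with the MEK inhibitor PD0325901 and the GSK3 inhibitor CHIR99021, or LIF alone, and all were treated with cycloheximide before lysis. Ribosome-protected fragments were made with MNase in 3 libraries per group and with RNase I in 2 libraries per group, which gives 20 libraries. Neither separate cultures nor the number of clones behind the replicates is given in the sources used here, so p-values measure the spread between these libraries, which may be technical. Values are counts over coding sequence scaled to library size (CPM). They rise with mRNA amount, with translation and with coding length, so levels of different genes are not compared. In bulk libraries fewer cells of a type and less RNA per cell cannot be told apart.

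The MNase libraries held 2127850 to 5461210 counts in WT cells and 6560173 to 8894080 in KI cells, with no overlap. The RNase I libraries held 4011036 to 22916734 counts in WT and 1965050 to 16359039 in KI cells. The subunits took 1.44% to 1.85% of the counts with MNase and 1.71% to 2.00% with RNase I. KI replicate 1 stood apart in both media: over all genes its chi-square per degree of freedom against the other KI libraries of its group was 23.1 to 27.5 with MNase, while KI replicates 2 and 3 differed by 2.98 in LIF/2i and 5.90 in LIF. With RNase I KI replicates 1 and 2 differed by 25.2 in LIF/2i and 8.06 in LIF. All other pairs within a group gave 2.64 to 18.2. Counts of genes are therefore also given below without it. The summed level of 8 ES cell markers was 4931 to 5410 CPM in WT and 4726 to 5102 CPM in KI cells in LIF/2i with MNase, and 3307 to 4398 and 2833 to 3215 CPM in LIF. The 7 fibroblast and feeder markers summed to 4.61 to 15.2 CPM in LIF/2i, to 52.8 to 663 CPM in WT and 87.1 to 117 CPM in KI cells in LIF. The 7 primitive endoderm markers summed to 59.3 to 82.7 CPM in WT and 16.6 to 25.2 CPM in KI cells in LIF, and to 20.2 to 34.7 and 9.16 to 21.3 CPM in LIF/2i. The 5 trophoblast markers summed to 178 to 247 and 91.3 to 217 CPM in LIF/2i and to 386 to 551 and 219 to 264 CPM in LIF, in WT and KI cells. The 4 neuroectoderm markers summed to 19.9 to 43.8 and 11.4 to 71.6 CPM in LIF/2i and to 42.0 to 60.8 and 67.2 to 79.5 CPM in LIF, again in WT and KI cells. The part of these cell types in the differences described next was not tested. With all MNase libraries thinned to the smallest total, 18 members were called between genotypes in LIF/2i and 15 in LIF, against 27 and 16 without thinning. After thinning 13 were higher and 5 lower in KI cells in LIF/2i, where 11.9% of all genes were higher and 10% lower. In LIF 6 were higher and 9 lower, where 6.78% and 5.54% of all genes were.

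Promoters of respiratory genes are known for sites of the nuclear respiratory factors NRF1 and GABP, an ETS factor, and for an element around the start codon that is shared between YY1 sites and the short-leader initiator TISU. RefSeq windows of the build GRCm38.p6, from 250 bases before to 50 bases after a gene's start, were at hand for 68 of the 87 members, in 73 windows. The NRF1 core GCGCATGCG, searched on both strands, lay in 11% of these windows and in 1.75% of all 32851 windows of the same length. For the ETS core CCGGAAGT the shares were 6.85% and 3.89%, and for the start-codon element AAGATGGCG they were 9.59% and 1.4%. At least 1 of these cores lay in 26.0% of the members' windows and 6.69% of all windows. The NRF1 core is nearly its own reverse complement, so overlapping matches on both strands are common. A match describes letters and was not tested as a site.

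The next 5 stretches, from 5 of the 8 member genes with an NRF1 core, show the core in genes of 3 complexes. The core is in capitals, and each stretch runs 5′ to 3′ on the gene's strand.
Ndufa11, chr17:56717687-56717726, plus strand: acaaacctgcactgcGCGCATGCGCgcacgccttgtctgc
Cox6a1, chr5:115349096-115349135, minus strand: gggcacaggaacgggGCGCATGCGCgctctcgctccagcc
Atp5g2, chr15:102671065-102671104, minus strand: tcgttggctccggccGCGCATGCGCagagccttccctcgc
Atp5k, chr5:108434425-108434464, minus strand: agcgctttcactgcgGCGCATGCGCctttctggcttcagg
Atp5l, chr9:44920953-44920992, minus strand: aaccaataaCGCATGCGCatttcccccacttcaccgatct

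The next 6 stretches carry the start-codon element in capitals, within 50 bases after the RefSeq start site. They are shown because 2 of these genes, Ndufa9 and Ndufs4, are among the 6 members whose footprints were higher in KI cells in both media.
Ndufa9, chr6:126849096-126849125, minus strand: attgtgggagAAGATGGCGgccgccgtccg
Ndufs4, chr13:114388045-114388074, minus strand: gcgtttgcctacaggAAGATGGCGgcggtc
Ndufs6, chr13:73328433-73328462, minus strand: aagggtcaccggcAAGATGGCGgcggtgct
Ndufs7, chr10:80249463-80249492, plus strand: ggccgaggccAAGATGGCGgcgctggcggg
Ndufc1, chr3:51408914-51408943, minus strand: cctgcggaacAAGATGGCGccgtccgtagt
Atp5j2, chr5:145191499-145191528, minus strand: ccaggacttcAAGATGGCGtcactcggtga
The genes with this element did not share a direction in the MNase comparison of genotypes in LIF, in which Ndufa9 and Ndufs4 rose and Ndufc1 fell.

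With MNase in LIF/2i, KI cells had more footprints on part of complexes I, III and V and on the catalytic subunit of complex II. Of 85 members tested, 20 rose and 7 fell in KI cells, against a background of 13.8% of all genes higher and 11.5% lower. "Rose" and "fell" mean an adjusted p under 0.05 in edgeR's quasi-likelihood test, adjusted over all genes tested by Benjamini-Hochberg. By complex, 10 of 38 members of complex I rose, 1 of 4 of complex II, 4 of 9 of complex III, 1 of 17 of complex IV and 4 of 17 of complex V. The falls were 2 in complex I, 4 in complex IV and 1 in complex V. The median log2 difference of the members was 0.12 and that of all genes 0.01. Scaled by library totals instead of TMM factors, 13 members rose and 11 fell, and the median of all genes shifted to -0.10, with 10.3% of all genes higher and 15.1% lower. The count of members called, 27 with all libraries, was 17 without WT replicate 1 or without KI replicate 3 in LIF/2i, and 15 without WT replicate 3 or without KI replicate 2. Without WT replicate 1, 10.9% of all genes were higher and 8.81% lower, and without KI replicate 3, 9.22% and 6.77%. These shares were 9.56% and 7.74% without WT replicate 3, and 7.05% and 5.14% without KI replicate 2.

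In LIF fewer members passed the test, and complex IV held most of the falls. There 6 members rose (7.06%) and 10 fell (11.8%) in KI cells, against a background of 7.36% higher and 6.05% lower. The share of rises was thus near that of all genes. The rises were 4 in complex I, Sdha and Uqcrc2, and 6 of the 10 falls were in complex IV, where 16 of 17 members had a value below 0 and the median was -0.49. The medians of the other complexes were -0.07 for I, -0.23 for II, 0.03 for III and -0.13 for V. All 6 rises of LIF were also rises in LIF/2i, where 20 members rose, and 2 members, Atp5g2 and Cox8a, fell in both media. The groups compared in the 2 media do not share libraries, but all entered 1 fit. KI libraries of the same number also deviated together across the media, with correlations of 0.563, 0.315 and 0.393. The 2 comparisons are therefore not independent, and their overlap was not counted over all genes. The count of calls, 16 with all libraries, was 7 without WT LIF replicate 1, 9 without WT LIF replicate 2 and 8 without KI LIF replicate 3. Of all genes, 3.07%, 3.87% and 3.49% were higher in these fits, and 2.4%, 3.3% and 2.49% lower.

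**Figure D1:**
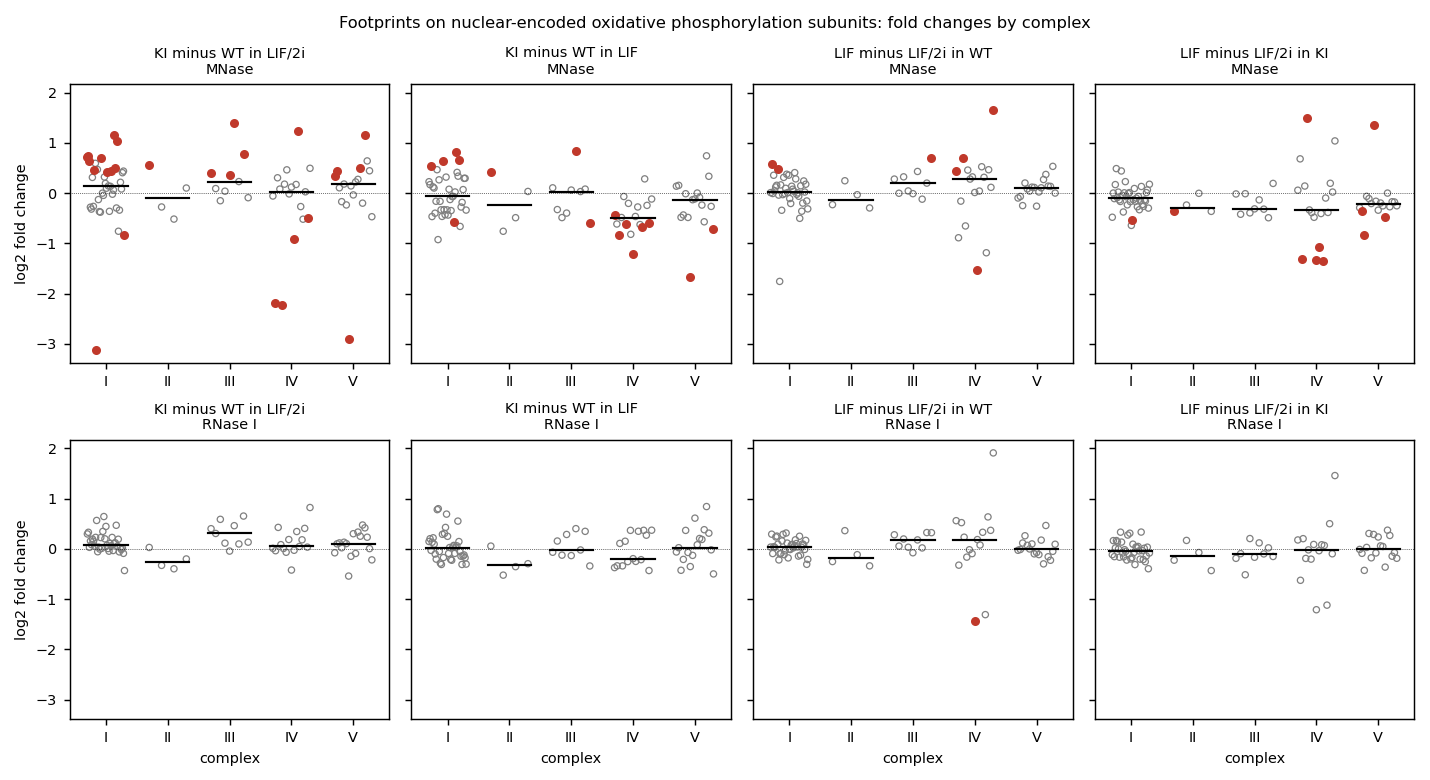
Each point is a member, at its log2 fold change (vertical axis) within its complex (horizontal axis), with MNase above and RNase I below, red where the adjusted p was under 0.05 and open otherwise; bars are medians of each complex. Red points are frequent in the MNase comparisons of genotypes, with 20 rises and 7 falls in LIF/2i and 6 and 10 in LIF, and the RNase I panels hold 1, Cox7a1 in WT cells.

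In complex I, Ndufs1 rose most in both media. Ndufs1, which carries iron-sulphur clusters of the NADH-oxidising arm, gave 206, 149 and 164 CPM in the WT libraries in LIF/2i and 365, 401 and 385 CPM in the KI libraries. In LIF it gave 170.2, 156 and 194 CPM in WT and 263, 289.8 and 362 CPM in KI cells. The genotypes did not overlap in either medium, and the log2 difference was 1.15 (SE 0.15, adjusted p = 6.09e-04) in LIF/2i and 0.81 (SE 0.15, adjusted p = 0.00512) in LIF. Ndufs4, an accessory subunit needed to complete the same arm, gave 85.5, 81.9 and 69.1 CPM in WT and 154, 174 and 154 CPM in KI cells in LIF/2i. In LIF its WT libraries gave 78.0, 80.8 and 101 CPM and its KI libraries 156, 143 and 113 CPM. Its log2 difference was 1.03 (SE 0.15, adjusted p = 9.76e-04) in LIF/2i and 0.66 (SE 0.15, adjusted p = 0.0147) in LIF, and every KI library lay above every WT library of its medium.

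Ndufa9 and Ndufa10, accessory subunits that sit where the arms of complex I meet and in its membrane arm, moved the same way. Ndufa9 stood at 149, 173 and 136 CPM in WT against 247, 241 and 257 CPM in KI cells in LIF/2i, and at 153, 146 and 155 against 276, 205 and 228 CPM in LIF, with log2 differences of 0.71 (SE 0.13, adjusted p = 0.00281) and 0.64 (SE 0.13, adjusted p = 0.00784). Ndufa10 stood at 138, 126 and 107 against 197, 193 and 189 CPM in LIF/2i and at 114, 115 and 138 against 170.2, 186 and 179 CPM in LIF, with log2 differences of 0.64 (SE 0.12, adjusted p = 0.0033) and 0.54 (SE 0.12, adjusted p = 0.0131). Both genes were higher in all KI libraries than in all WT libraries of the same medium. The accessory subunits Ndufa1, NDUFB1-PS, Ndufa3, Ndufb9 and Ndufb5 rose in LIF/2i by 0.74, 0.72, 0.45, 0.44 and 0.41 on the log2 scale. Of these, Ndufa3 kept its call under 3 of 21 alternatives.

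The flavin-arm subunits of complex I were split. Ndufv3, an accessory subunit of the flavin-bearing end, gave 103, 101 and 125 CPM in WT and 77.1, 57.7 and 50.8 CPM in KI cells in LIF/2i and fell by 0.83 on the log2 scale (SE 0.17, adjusted p = 0.00437). Its neighbours in that end, Ndufv1, which binds NADH and flavin, and Ndufv2, which holds an iron-sulphur cluster, had log2 values of 0.40 and 0.44 that did not pass the test. Ndufc1, a small subunit of the membrane arm, stood at 99.9, 98.7 and 109.9 CPM in WT and 84.0, 66.7 and 56.6 CPM in KI cells in LIF, where its log2 difference was -0.58 (SE 0.16, adjusted p = 0.0285). It was the complex I member that fell in LIF, and its values in LIF/2i overlapped between genotypes.

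In complex II the call was confined to the catalytic subunit when all libraries were used. Sdha, the flavoprotein that oxidises succinate, gave 371, 378 and 403 CPM in WT and 521, 597 and 575 CPM in KI cells in LIF/2i. In LIF the values were 316, 309 and 357 CPM for WT and 428, 426 and 463 CPM for KI cells. The log2 difference was 0.55 (SE 0.10, adjusted p = 0.00298) in LIF/2i and 0.42 (SE 0.10, adjusted p = 0.019) in LIF, with no overlap. Sdhb, the iron-sulphur subunit, and Sdhc, a membrane anchor, had values below 0 in both media that did not pass the test: -0.28 and -0.76 for Sdhb, -0.52 and -0.49 for Sdhc. Sdhd, the other anchor, was at 0.10 and 0.03.

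In complex III the core subunit Uqcrc2, which helps hold the dimer together on the matrix side, gave the largest rise. Its level was 247, 271 and 204 CPM in WT and 425, 756 and 715 CPM in KI cells in LIF/2i. In LIF it was 302, 328 and 342 CPM in WT and 486, 605 and 636 CPM in KI cells. The log2 difference was 1.39 (SE 0.19, adjusted p = 6.73e-04) in LIF/2i and 0.83 (SE 0.19, adjusted p = 0.0144) in LIF. KI replicate 1 was the lowest KI library in both media and still lay above every WT library. Uqcrh, the hinge protein beside cytochrome c1, gave 44.3, 44.3 and 35.6 CPM in WT and 72.4, 73.2 and 65.6 CPM in KI cells in LIF/2i (log2 difference 0.77). Cyc1, which is cytochrome c1, and the core subunit Uqcrc1 rose there by 0.40 and 0.36, and the call for Uqcrc1 was lost under 10 of 21 alternatives, the fit without KI replicate 1 among them. Uqcrq, a ubiquinone-binding small subunit, ran the other way in LIF, with 184, 165 and 201 CPM in WT and 145, 119.8 and 98.6 CPM in KI cells and a log2 difference of -0.60 (SE 0.17, adjusted p = 0.039), a call lost under 9 of 21 alternatives. Uqcr11, a small subunit with the fewest counts of the complex, gave 24.5 ± 6.7 CPM (SD, n = 3) in WT and 22.1 ± 6.54 CPM (SD, n = 3) in KI cells in LIF/2i.

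**Figure D2:**
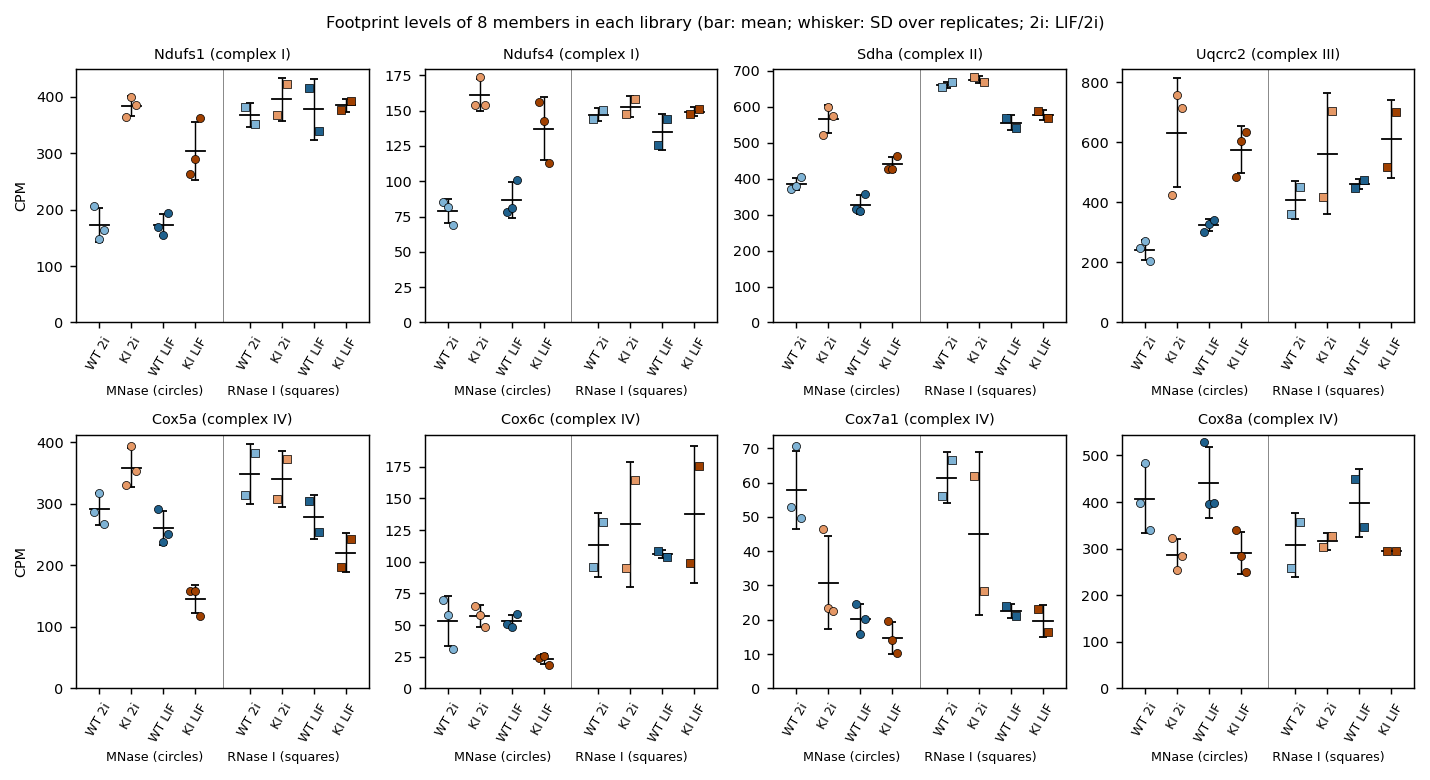
Each panel plots a member's CPM (vertical axis, from 0) in every library of each genotype and medium (horizontal axis), with the mean as a bar and the SD as a whisker, circles for MNase and squares for RNase I. Ndufs1, Ndufs4, Sdha and Uqcrc2 lie higher in KI than WT cells with MNase; Cox5a and Cox6c are lowest in KI cells in LIF with MNase, and Cox7a1 is lower in LIF than LIF/2i in WT cells with both nucleases.

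In the ATP synthase both subunits of the catalytic head rose in LIF/2i. Atp5b, the catalytic beta subunit, gave 2011, 1906 and 1731 CPM in WT and 2383, 2661 and 2662 CPM in KI cells there, a log2 difference of 0.45 (SE 0.10, adjusted p = 0.00649). Atp5a1, the alpha subunit, gave 2509, 2188 and 1962 CPM in WT and 2729, 2856 and 2791 CPM in KI cells, a log2 difference of 0.33 (SE 0.11, adjusted p = 0.039). Both were small changes with no overlap between genotypes, and that of Atp5a1 was lost under 9 of 21 alternatives. Of the small membrane subunits that hold the synthase dimer, Atp5md rose from 10.6, 13.8 and 16.2 CPM in WT to 32.8, 28.2 and 30.1 CPM in KI cells, by 1.15 (SE 0.30, adjusted p = 0.0139) on the log2 scale, and Atp5k rose by 0.50. Atp5pb, the peripheral-stalk b subunit, stood at 85.8, 95.2 and 105 CPM in WT and 65.8, 57.2 and 50.7 CPM in KI cells in LIF, with a log2 difference of -0.72 (SE 0.17, adjusted p = 0.0146).

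The 3 genes for subunit c of the proton-carrying ring, Atp5g1, Atp5g2 and Atp5g3, encode the same mature protein and differ in their import sequences. Atp5g2 had few footprints and was lower in KI cells in both media: 5.67, 5.87 and 3.69 CPM in WT against 0.458, 0.64 and 0.847 CPM in KI cells in LIF/2i, and 6.84, 4.34 and 5.45 against 1.69, 1.59 and 1.79 CPM in LIF. The log2 difference was -2.91 (SE 0.39, adjusted p = 6.29e-04) in LIF/2i and -1.68 (SE 0.35, adjusted p = 0.00847) in LIF. Atp5g1 and Atp5g3 had log2 values of -0.24 and 0.14 in LIF/2i and -0.49 and -0.13 in LIF that did not pass the test. Since the mature coding parts are alike, reads of these genes may be shared between them and their values are uncertain.

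Complex IV, cytochrome c oxidase, carried most of the falls in LIF. Cox5a, a matrix-side subunit next to the core, gave 292, 238 and 251 CPM in WT and 158, 159 and 118 CPM in KI cells in LIF. In LIF/2i it gave 288, 318 and 267 CPM in WT and 330.4, 394 and 353 CPM in KI cells. The log2 difference was -0.84 (SE 0.14, adjusted p = 0.0031) in LIF, where the genotypes did not overlap. Cox6c, a small transmembrane subunit, gave 51.1, 48.8 and 58.9 CPM in WT and 24.3, 25.9 and 18.4 CPM in KI cells in LIF, a log2 difference of -1.22 (SE 0.25, adjusted p = 0.00833). All 3 KI libraries were lower than all WT libraries. Cox7b, another transmembrane subunit, stood at 239, 268 and 214 against 155, 173 and 121 CPM in LIF, a log2 difference of -0.68 (SE 0.14, adjusted p = 0.00915). Cox4i1, the regulatory subunit with most counts of the complex, gave 1070, 892 and 984 CPM in WT and 736, 745 and 681 CPM in KI cells in LIF and fell by 0.45 on the log2 scale. Cox6a1, the common form of subunit VIa, had a log2 difference of -0.62 there, also past the threshold.

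Cox8a, the common form of the smallest subunit, was lower in KI cells in both media, with 398, 484 and 339 CPM in WT against 322, 254 and 284 CPM in KI cells in LIF/2i and 529, 396 and 399 against 339.6, 284 and 249.6 CPM in LIF. Its log2 differences were -0.50 (SE 0.17, adjusted p = 0.0421) and -0.60 (SE 0.17, adjusted p = 0.0328), and the calls were lost under 9 and 7 of 21 alternatives. Cox7a2l, a factor that joins complexes III and IV into supercomplexes, went the other way in LIF/2i, with 6.74, 4.99 and 3.69 CPM in WT and 10.5, 13.1 and 12.4 CPM in KI cells. Its log2 difference was 1.24 (SE 0.26, adjusted p = 0.00523), and it rested on few counts. Cox5b and the row Cox5b-ps, annotated as a pseudogene, are near-identical copies, so their reads may be split between them. Cox5b-ps fell by 2.22 in KI cells in LIF/2i at a WT level of 2.9 ± 0.547 CPM (SD, n = 3), while Cox5b, with 45.2 ± 9.96 CPM (SD, n = 3), did not pass the test.

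The medium comparisons ask what removal of the inhibitors did within a genotype. In WT cells with MNase, 6 members rose and 1 fell in LIF against LIF/2i, against a background of 9.99% higher and 11% lower, so the share of falls was below that of all genes and the rises were near it. The rises were Cox8c (1.65), Cox5b (0.71), Uqcrq (0.70), Ndufa1 (0.57), Ndufa3 (0.48) and Cox4i1 (0.44), given as log2 differences, and the fall was Cox7a1 (-1.52). Cox4i1 went from 675, 817 and 673 CPM in LIF/2i to 1070, 892 and 984 CPM in LIF. Uqcrq went from 103, 132 and 105 to 184, 165 and 201 CPM. The calls for Ndufa1 and Ndufa3 were lost under 12 and 14 of 21 alternatives. The count of calls was 1 without WT LIF/2i replicate 1, without WT LIF/2i replicate 3 or without WT LIF replicate 3, 4 without WT LIF replicate 1, and 11 without KI LIF replicate 1. In the order of these fits, 5.54%, 8.63%, 6.18%, 6.59% and 11.6% of all genes were higher, and 7.05%, 9.96%, 7.02%, 7.45% and 12.7% lower. In the same WT libraries, as given above, fibroblast, primitive endoderm and trophoblast markers were higher in LIF and ES cell markers lower, with no overlap. Neuroectoderm markers lay higher in LIF with overlapping ranges. The part of these cell types was not tested.

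In KI cells with MNase, 2 members rose (2.35%) and 9 fell (10.6%) in LIF, against a background of 8.37% higher and 10.3% lower. The share of falls was thus near that of all genes and that of rises below it. Scaled by library totals, 3 rose and 6 fell, against 11.1% and 7.99% of all genes. With TMM factors the falls were 4 in complex IV, 3 in complex V, and Ndufb5 and Sdha. Cox5a went from 330.4, 394 and 353 CPM in LIF/2i to 158, 159 and 118 CPM in LIF, a log2 difference of -1.31 (SE 0.14, adjusted p = 7.56e-05), and kept the call under all 21 alternatives run. Cox6c went from 65.2, 57.9 and 48.5 to 24.3, 25.9 and 18.4 CPM, a log2 difference of -1.32 (SE 0.25, adjusted p = 0.00268). Cox7a2l went from 10.5, 13.1 and 12.4 to 5.08, 4.49 and 4.58 CPM, a log2 difference of -1.35 (SE 0.25, adjusted p = 0.00234). In each, the 3 libraries in LIF lay below the 3 in LIF/2i. In the ATP synthase, Atp5c1, the gamma subunit of the rotating shaft, fell by 0.84, Atp5b by 0.36 and Atp5k by 0.47 on the log2 scale, and outside it Ndufb5 fell by 0.55 and Sdha by 0.36. The rises were those of Atp5g2 and Cox5b-ps, both with few counts. The count was 5 to 6 without KI LIF/2i replicate 2, KI LIF/2i replicate 3, KI LIF replicate 2 or KI LIF replicate 3, and 21 without KI LIF replicate 1. In the order of these fits, 4.94%, 5.13%, 5.53%, 4.8% and 10.1% of all genes were higher, and 6.73%, 7.36%, 7.34%, 6.68% and 11.7% lower.

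Whether the genotypes differed in their response to the medium was tested with an interaction term. With MNase the median interaction of the 85 members was -0.27 and that of all genes -0.02. The median log2 level of the members had a pooled SD of 0.168 between MNase libraries of a group. Members are not replicates, and no test was run on their median. Of the 85, 1 member passed the test, against a background of 0.102% higher and 0.234% lower. That member was Cox5a, at -1.15 (SE 0.20, adjusted p = 0.0249). KI minus WT was 0.30 in LIF/2i, which did not pass the test, and -0.84 in LIF. The call was lost without WT LIF/2i replicate 1 or 3, without WT LIF replicate 1 or 3, and without KI LIF/2i replicate 2 or 3. Without KI replicate 1 in both media, 5 members had a lower response in KI cells, where 1.31% of all genes were higher and 2.14% lower. With RNase I the interaction of Cox5a was -0.30 (SE 0.26). In edgeR 0 members passed, with 2 at an unadjusted p under 0.05, where 0% of all genes passed in either direction. In DESeq2 0 members passed, against 0.0413% of all genes higher and 0.19% lower.

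The window of 250 bases before the Cox5a start site is given because this gene alone passed the interaction test. It held none of the 3 cores searched.
Cox5a, chr9:57520982-57521231, plus strand: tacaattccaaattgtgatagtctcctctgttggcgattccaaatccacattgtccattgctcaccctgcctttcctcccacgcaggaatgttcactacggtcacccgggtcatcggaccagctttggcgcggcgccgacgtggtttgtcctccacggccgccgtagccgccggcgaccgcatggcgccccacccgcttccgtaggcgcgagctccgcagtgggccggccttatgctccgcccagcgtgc

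Of the 10 tissue-restricted isoforms, 8 could be tested with MNase. Cox7a1, the heart and muscle form of subunit VIIa, was the 1 member that fell in the same comparison with both nucleases. In WT cells it gave 52.8, 70.7 and 49.7 CPM in LIF/2i with MNase, against 24.6, 16 and 20.2 CPM in LIF, and 56.1 and 66.6 CPM in LIF/2i against 24.1 and 21.1 CPM in LIF with RNase I. Its log2 change in LIF was -1.52 (SE 0.32, adjusted p = 0.00459) with MNase and -1.44 (SE 0.35, adjusted p = 0.0299) with RNase I, with no overlap in either. In KI cells it went from 46.4, 23.6 and 22.4 CPM to 19.5, 14.0 and 10.3 CPM with MNase, a log2 difference of -1.08 (SE 0.31, adjusted p = 0.0258). With RNase I it went from 61.9 and 28.3 CPM to 23.0 and 16.4 CPM, and the value of -1.21 did not pass the test. KI replicate 1 held the highest level of the KI libraries in both media. Markers of skeletal and heart muscle, 6 in all, summed to 13.8 to 18.7 CPM in WT cells in LIF/2i and 16.7 to 27.1 CPM in LIF, with overlapping ranges. The RNase I call was lost without any 1 of the 4 WT libraries.

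The 250 bases before the start site of Cox7a1, which held none of the 3 cores, are given for the gene called with both nucleases.
Cox7a1, chr7:30183921-30184170, plus strand: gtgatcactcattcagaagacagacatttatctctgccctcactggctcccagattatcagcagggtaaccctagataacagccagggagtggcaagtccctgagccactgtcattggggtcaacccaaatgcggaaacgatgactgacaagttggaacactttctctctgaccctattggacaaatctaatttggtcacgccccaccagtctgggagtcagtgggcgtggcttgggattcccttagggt

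Cox8c, a testis form of the smallest subunit, went from 0.709, 1.76 and 0.984 CPM in LIF/2i to 3.65, 2.71 and 4.57 CPM in LIF in WT cells, a log2 difference of 1.65 (SE 0.44, adjusted p = 0.0188), at a level of few counts. The testis forms Cox6b2 and Cox7b2 stood at 62.4, 61.3 and 47.5 CPM and at 24.5, 27.9 and 23.4 CPM in WT cells in LIF/2i and passed no comparison of genotype or medium when all libraries were used. Ndufa4l2, a hypoxia-induced relative of Ndufa4, and Cox4i2, a lung form of subunit IV, fell in KI cells in LIF/2i, by 3.12 and 2.18 on the log2 scale. Ndufa4l2 gave 6.74, 1.47 and 16 CPM in WT and 2.75, 0 and 0.141 CPM in KI cells, and Cox4i2 gave 1.42, 1.17 and 9.34 CPM in WT and 1.37, 0.64 and 0.706 CPM in KI cells. WT replicate 3 was highest for both, and the genotypes overlapped. Without that library neither call held, at log2 differences of -2.09 for Ndufa4l2 and -0.52 for Cox4i2, and that of Ndufa4l2 was also lost without WT replicate 1, at -3.23. Cox8b and Cox6a2, muscle forms, had 5 counts each over the 20 libraries and could not be tested.

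Summed over each complex, footprints with MNase gave the same outline, as a description with no test. In LIF/2i with MNase the mean sum of complex I was 4357 CPM in WT and 5318 CPM in KI cells, that of complex III 1694 and 2414 CPM, and that of complex V 6332 and 7847 CPM, each with no overlap between genotypes. Complex IV was at 2400.5 and 2381 CPM, with overlap. With RNase I in LIF/2i the genotypes overlapped for complexes I and V, at log2 ratios of 0.07 and 0.01. Complex III was higher in KI cells there, at 0.20 with no overlap. In LIF the sum of complex IV was 2811 CPM in WT and 1972 CPM in KI cells with MNase and 2822 and 2418 CPM with RNase I, with no overlap in either. The sums of complexes I and V overlapped between genotypes in LIF with both nucleases. Complex II was lower in KI cells in LIF with RNase I, with no overlap (log2 ratio -0.18), and overlapped with MNase. Complex III was higher in KI cells in LIF with MNase, with no overlap (log2 ratio 0.15), and overlapped with RNase I. Within KI cells the sums of complexes II to V were lower in LIF than in LIF/2i with MNase, with log2 ratios of -0.28, -0.19, -0.27 and -0.29. With RNase I the same ratios were -0.189, -0.089, -0.033 and -0.035, and the media overlapped for complexes III to V. A sum follows its members with most counts, which for complex V are Atp5a1 and Atp5b.

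**Figure D3:**
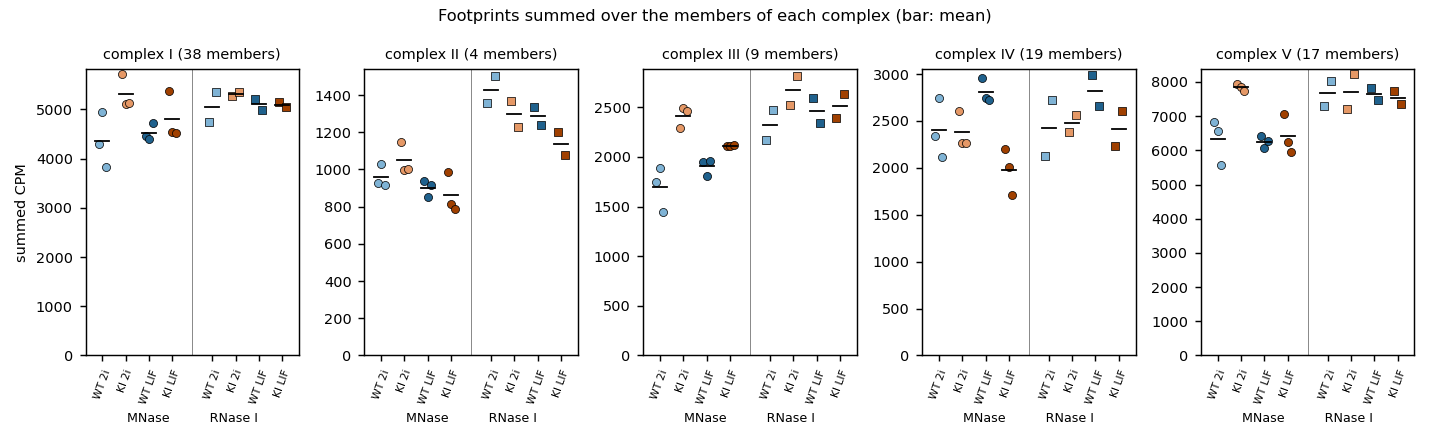
Each point is a library's CPM summed over all members of a complex (vertical axis, from 0), by genotype and medium (horizontal axis), with circles for MNase, squares for RNase I and bars for means. With MNase the KI libraries in LIF/2i lie above the WT libraries for complexes I, III and V, and the KI libraries in LIF lie below the WT libraries for complex IV.

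KI replicate 1 differed from the other KI libraries in many members. Of the 85 tested with MNase, 50 had their highest KI level in replicate 1 in both media and 3 their lowest. The same count was not made over all genes. Since replicate 1 stood apart over all genes, these counts are not read as particular to the subunits. In KI cells Sdhb gave 215, 123 and 125 CPM in LIF/2i, against 188, 111 and 94.3 CPM in LIF, where WT cells gave 174, 235 and 153 CPM (LIF/2i), then 247, 201 and 218 CPM (LIF). Its replicate 1 lay among the WT libraries in LIF/2i and below them in LIF, and replicates 2 and 3 lay below them in both. Ndufa5, an accessory subunit of complex I, gave 134, 68.1 and 76.1 CPM in KI cells in LIF/2i, against 151, 55.4 and 63.4 CPM in LIF, where WT cells gave 68.1, 78.6 and 54.1 CPM (LIF/2i), then 79.4, 73.5 and 71.9 CPM (LIF). With RNase I the same number stood out, at 121 and 80.1 CPM and 145 and 76.9 CPM in KI cells. Ndufa4, named for complex I and now placed in complex IV, gave 351, 218 and 183 CPM and 351, 168 and 151 CPM in the KI groups with MNase. In both genes replicate 1 lay above every WT and every other KI library of its medium.

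Without KI replicate 1 in both media, a choice made with its values known, 20 members rose and 18 fell in KI cells in LIF/2i, where 20.2% of all genes were then higher and 18.9% lower. In LIF 6 rose and 27 fell, where 13.1% of all genes were higher and 13.6% lower. All 6 rises and all 10 falls of LIF with all libraries were among them, and 18 of the 20 rises in LIF/2i. The added falls in both media included Sdhb, at -0.59 in LIF/2i and -1.11 in LIF, Sdhc, at -0.74 and -0.71, Ndufa8, at -0.66 and -0.58, and Atp5d, the delta subunit of the ATP synthase, at -0.41 and -0.60. Ndufa2, Ndufa7, Ndufa11 and Ndufb7, accessory subunits of complex I, were added in both media too. Cox6b2 joined the falls in LIF at -1.34. In complex IV 10 members then fell in LIF, in complex I 7, in complex V 6, and in complexes II and III 2 each.

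**Figure D4:**
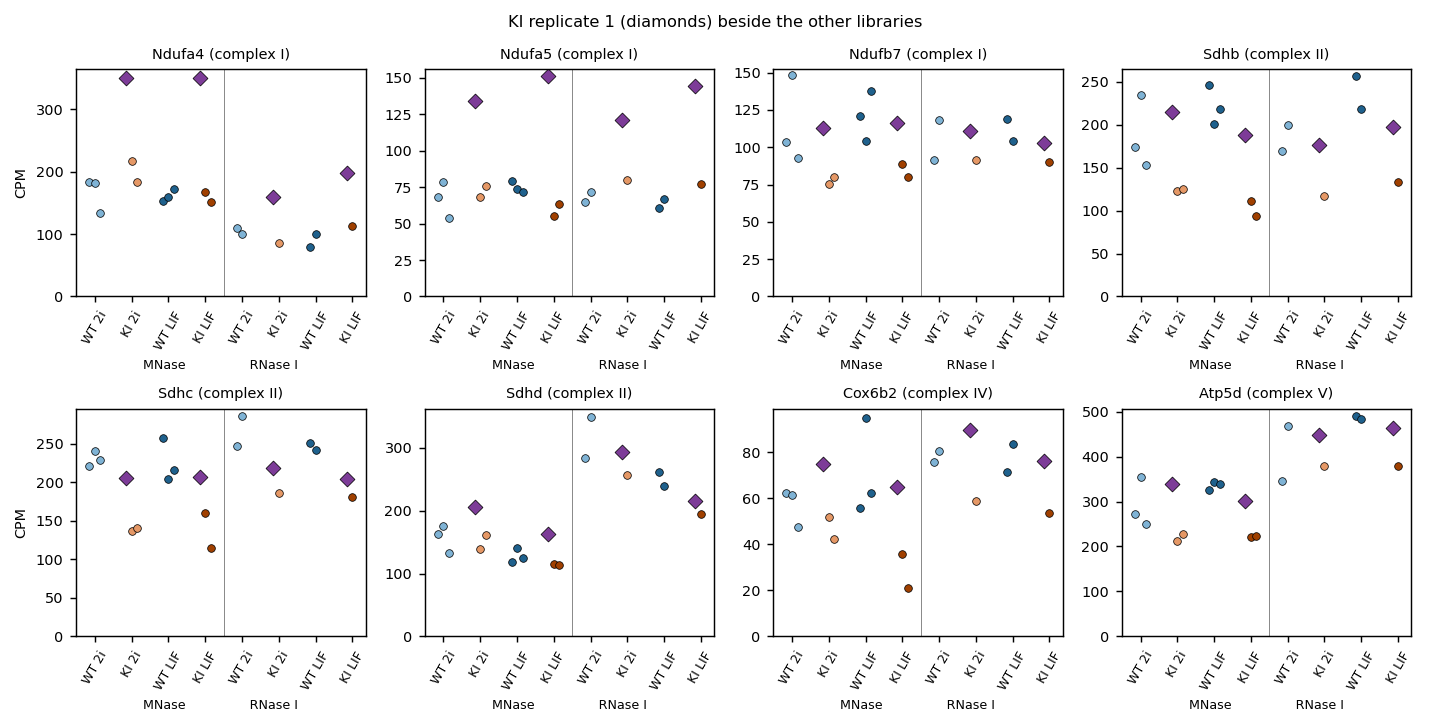
Each panel plots a member's CPM (vertical axis, from 0) in each library by genotype and medium (horizontal axis), MNase on the left and RNase I on the right, with KI replicate 1 as a diamond. The diamond is the highest KI point in every group shown; for Sdhb, Sdhc and Atp5d with MNase the other KI libraries in LIF lie below the WT libraries.

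With RNase I no comparison of genotypes passed the test for a member. In LIF/2i 0 of 82 members passed in edgeR, with 5 at an unadjusted p under 0.05, where 0.116% of all genes were higher and 0.116% lower. In DESeq2 0 members passed there, against 1.17% of all genes higher and 1.1% lower. In LIF 0 passed in edgeR, with 6 at an unadjusted p under 0.05, where 0% of all genes were higher and 0.116% lower. In DESeq2 0 passed in LIF, against 0.455% of all genes higher and 1.23% lower. In the medium comparisons 1 member, Cox7a1, fell in WT cells, where 7.17% of all genes were higher and 6.47% lower. Scaled by library totals, 1 member rose and 1 fell there, with 8.14% and 5.77% of all genes. In KI cells 0 passed in edgeR, with 6 at an unadjusted p under 0.05, where 1.41% of all genes were higher and 2.04% lower. In DESeq2 1 passed in KI cells, against 3.3% of all genes higher and 3.52% lower. In simulated counts 17.2% of genes changed by 1 on the log2 scale were recovered with RNase I and 46.9% with MNase in the comparison of genotypes in LIF/2i, and 96.9% and 93.9% of those changed by 2. The simulation changed 93 genes by 1 and 97 by 2 of 11660 with RNase I, and 98 and 99 of 12505 with MNase. Genes were drawn from all levels and shared 1 spread. Since far more genes were called with MNase in the data, these rates do not give the recovery of the members.

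The RNase I values of members called with MNase are given as a description. These members were chosen for passing with MNase, and libraries of the same number deviated together across the nucleases. Of the 20 rises in LIF/2i, 18 had a value above 0 with RNase I, with a median of 0.11 against 0.60 with MNase. Of the 10 falls in LIF, 8 had a value below 0, with a median of -0.34 against -0.65. Uqcrc2 had 363 and 453 CPM in WT and 419 and 705 CPM in KI cells in LIF/2i with RNase I, and a log2 value of 0.46 (SE 0.25, adjusted p = 0.487). Cox5a had 304 and 254 CPM in WT and 198 and 244 CPM in KI cells in LIF and a value of -0.34 (SE 0.19, adjusted p = 0.456). In contrast, Ndufs1 had 383 and 353 CPM in WT and 369 and 423 CPM in KI cells in LIF/2i, overlapping groups, and a value of 0.11 (SE 0.15, adjusted p = 0.81). Ndufs4 and Sdha likewise had RNase I values of 0.06 and 0.03 in LIF/2i. Cox6c was above 0 in LIF with RNase I, at 0.37 (SE 0.33), against -1.22 with MNase.

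These differences between the nucleases were tested themselves over 84 members. In edgeR without a block, 0 members passed in each of the 4 tests (genotype in LIF/2i, genotype in LIF, medium in WT, medium in KI), as did 0% of all genes in each. At an unadjusted p under 0.05 there were 9, 8, 0 and 3 members. In DESeq2 3, 0, 0 and 0 members passed. It called 0.0314% of all genes higher and 0.471% lower for genotype in LIF/2i, and at most 0.0236% in either direction in the other tests. Libraries of the same group and number made with the 2 nucleases deviated together, with correlations of replicate differences of 0.556, 0.486, 0.711 and 0.643, so the fit with the number as a block is given beside it. With that replicate block 13, 3, 0 and 1 members passed, against a background of 15.3%, 0.738%, 0.0236% and 0.935% of all genes. The signed genotype difference in LIF/2i was lower with RNase I for 9 members: Ndufs1 by -0.999, Ndufs4 by -0.89, Atp5md by -0.90, Uqcrc2 by -0.69, Sdha by -0.52, Ndufa10 by -0.51, Ndufv2 by -0.40, Atp5a1 by -0.31 and Uqcrc1 by -0.31. The signed value was higher with RNase I for Atp5g2, Uqcr11, Cox8a and Ndufa2, by 2.73, 0.87, 0.68 and 0.52. Of these, Atp5g2 and Cox8a had fallen with MNase, and their RNase I values were -0.54 and 0.04. Ndufs1, Ndufs4 and Ndufa10 also differed in LIF, by -0.71, -0.75 and -0.64, and Cox6c in the medium response of KI cells, by 1.38. The share of members in LIF/2i was close to that of all genes.

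The nuclease itself changed the footprint count of many subunits. Over the 16 libraries that both nucleases cover, replicates 1 and 2 of each group, 35 of 84 members were higher and 13 lower with RNase I than with MNase, against a background of 15.7% higher and 16.4% lower. With the replicate block pairing the nucleases, 42 members were higher and 16 lower, against 23.7% and 23.4% of all genes. The values below are those without the block. In complex V 11 of 17 were higher, in complex I 16 of 38, in complex IV 4 of 16 and in complexes II and III 2 each. The falls were 7 in complex I, 3 in complex V, 2 in complex IV and 1 in complex III. The median log2 difference was 0.05 in complex I and 0.42 in complex V. Cox7c, a small subunit of complex IV, ranged over 10.0 to 16.9 CPM (median 13.5) with MNase and 41.9 to 128 CPM (median 71.0) with RNase I, a log2 difference of 2.41 (SE 0.16, adjusted p = 3.85e-08). Ndufs5, a small intermembrane-space subunit of complex I, ranged over 3.3 to 9.51 CPM (median 5.45) with MNase and 14.6 to 21.0 CPM (median 18.6) with RNase I, a log2 difference of 1.73 (SE 0.19, adjusted p = 4.3e-06). Neither gene's ranges overlapped.

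Atp5h, the d subunit of the peripheral stalk, ranged over 6.76 to 16.7 CPM (median 13.9) with MNase and 30.6 to 49.6 CPM (median 38.9) with RNase I, a difference of 1.57 (SE 0.16, adjusted p = 2.21e-06) on the log2 scale. Cox7a2l ranged over 4.44 to 12.6 CPM (median 6.67) with MNase and 15.5 to 26.3 CPM (median 18.7) with RNase I, a difference of 1.46. Both were higher in each RNase I library than in each MNase library. Among the falls, Ndufa4, Ndufb3, Atp5k and Cox7b had log2 differences of -0.84, -0.78, -0.68 and -0.58. Atp5k ranged over 54.1 to 80.4 CPM (median 57.8) with MNase and 28.4 to 52.1 CPM (median 40.4) with RNase I, with no overlap, and the ranges of Ndufa4, Ndufb3 and Cox7b overlapped. Subunits of the same complex stood at different ratios in the 2 kinds of library, and the part of sequence, length or read filters in this was not tested.

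**Figure D5:**
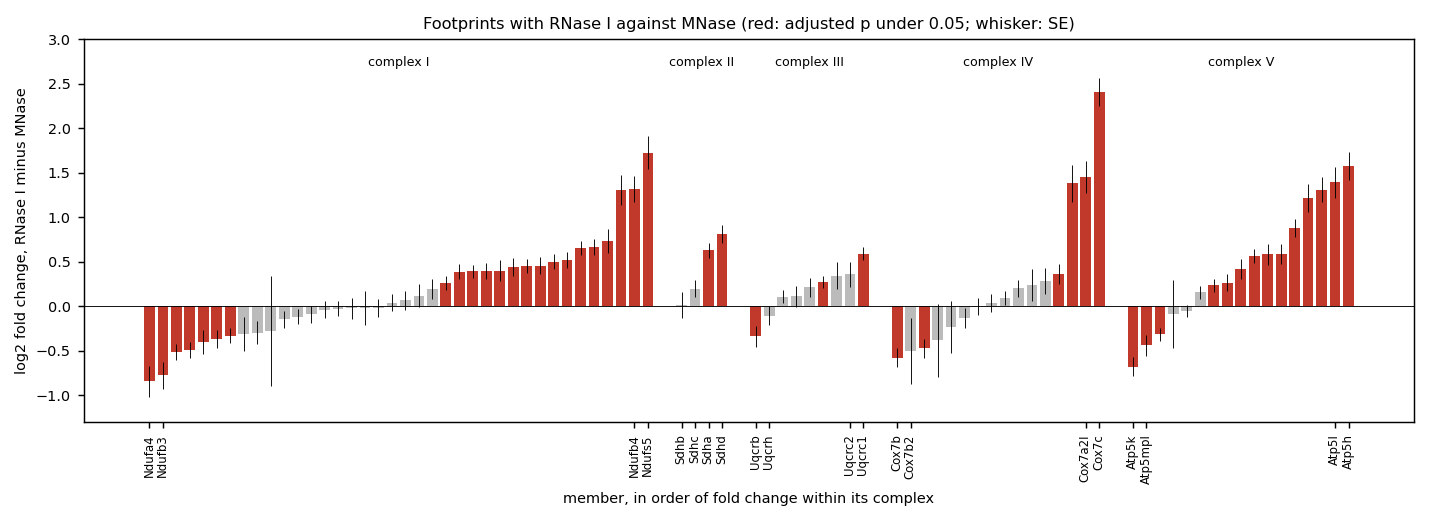
Bars give each member's log2 fold change of RNase I over MNase (vertical axis) with its SE as a whisker, members ordered within their complex (horizontal axis) with the 2 lowest and 2 highest of each named, red where the adjusted p was under 0.05. Cox7c stands highest at 2.41 and Ndufa4 lowest at -0.84; 11 of the 17 members of complex V are red and above 0.

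Genes around the subunits were taken from lists chosen for the pathway, tested in the same fit, and read against the same shares of all genes. With MNase these were 13.8% higher and 11.5% lower for genotype in LIF/2i, and 7.36% and 6.05% in LIF. For medium in KI cells they were 8.37% and 10.3%. Enzymes of the TCA cycle and pyruvate entry, which feed electrons to the chain, had 8 of 20 higher and 1 lower in KI cells in LIF/2i with MNase, with a median of 0.30, and 3 higher and 1 lower in LIF. With RNase I 0 of the 20 passed in edgeR in LIF/2i, with 4 at an unadjusted p under 0.05 and a median of 0.04, and 1 fell in LIF, with a median of -0.12. Dld, the E3 subunit shared by the pyruvate and oxoglutarate dehydrogenases, rose by 1.10 (SE 0.13) in LIF/2i and 0.69 (SE 0.13) in LIF, and Fh1, fumarase, by 0.72 and 0.69. Cs, citrate synthase, rose in LIF/2i by 0.67. Idh2, the mitochondrial NADP-dependent isocitrate dehydrogenase, fell by 0.90 in LIF, and Pdk1, a kinase that turns pyruvate dehydrogenase off, by 0.88 in LIF/2i. Assembly factors changed in few members: 3 of 18 for complex I rose in LIF/2i, namely Ndufaf4 by 0.94, Ndufaf1 by 0.79 and Ndufaf2 by 0.52. Of 24 assembly factors for complex IV, 2 rose and 2 fell in LIF/2i, and 1 rose and 2 fell in LIF. In LIF/2i the shares called for complexes I and IV were near or below those of all genes. The complex IV factor that rose in both media was Lrpprc, which stabilises mitochondrial mRNA, by 1.25 and 0.86. The falls in LIF were Cox14 and the copper chaperone Cox17, by 0.74 and 0.64. Of 4 factors for complex II, Sdhaf1 fell by 0.91 in LIF/2i, and of 7 for complex III, Ttc19 rose by 0.86. Of 5 factors for the ATP synthase 0 passed in edgeR in LIF/2i, with 1 at an unadjusted p under 0.05. With the medium, 1 TCA gene rose and 5 fell in KI cells in LIF, among them Sucla2, a subunit of succinyl-CoA synthetase, by 0.76, while Pdk1 rose by 2.23.

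Of the 13 mitochondrially encoded subunits, 10 were lower in KI cells in LIF/2i, with a median of -1.14, and 6 in LIF, with a median of -0.78. With RNase I 0 passed in either medium in edgeR, with 0 and 6 at an unadjusted p under 0.05, and the medians were -0.02 and 0.70. Among 17 mobile carriers and other electron donors tested, 4 rose in LIF/2i, namely Coq3, Coq4 and Coq7 of ubiquinone synthesis and Gpd2, a glycerol-3-phosphate dehydrogenase, by 1.38, 0.93, 0.46 and 0.73. In LIF 1 of the 17 rose and 2 fell, with a median of 0.17. Of 9 regulators of mitochondrial biogenesis tested, Tfam, which packs and transcribes mitochondrial DNA, rose by 0.50 in LIF/2i and 0.34 in LIF, and Gabpa, the ETS partner of the factor GABP, by 0.42 and 0.47. Esrra, an orphan nuclear receptor, fell by 0.75 in LIF/2i. With RNase I 0 genes of the assembly, carrier and regulator lists passed in edgeR between genotypes in either medium. At an unadjusted p under 0.05 there were 2 and 2 in LIF/2i and LIF for complex I assembly, 0 and 0 for II, 1 and 0 for III, 1 and 3 for IV, 2 and 1 for the ATP synthase, 3 and 1 for the carriers and 0 and 0 for the regulators.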

How the data were processed

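The libraries are ribosome footprints of mouse ES cells. Per the labels' protocols, monosomes from sucrose gradients gave fragments of 25 to 40 nt, with rRNA depleted and linkers carrying molecular identifiers (UMIs). The submitters' processing notes name cutadapt 3.4, Bowtie 1.3.0 and UMI-tools 1.0.1. The genome build and the aligner's settings are not given in the sources used here. The deposited table holds raw counts per gene over coding sequence, as whole numbers made by the authors from these reads.

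The counts were fitted with edgeR 4.0.16 in R 4.3.3 (limma 3.58.1), by quasi-likelihood tests with TMM factors and the filterByExpr filter on low counts, and p-values were adjusted by Benjamini-Hochberg over all genes tested. The 12 MNase and 8 RNase I libraries were fitted apart, with genotype and medium as groups, and replicates 1 and 2 of both together for the nuclease. Of the 87 members, 85 of 12806 genes passed the filter with MNase, 82 of 12095 with RNase I and 84 of 12732 in the joint fit. Cox8b and Cox6a2 passed in none, Cox4i2 with MNase alone, and Ndufa4l2 and Cox5b-ps did not pass with RNase I. CPM values use TMM-scaled totals. Alternatives were DESeq2 1.42.0, other scalings, no filter, thinning, a replicate block, both nucleases together, and libraries left out. In simulated counts of the MNase comparison of genotypes in LIF/2i (12505 genes) 6.71% of calls were false, and of the RNase I one (11660 genes) 4.35%. Few genes were changed there and all shared 1 spread, so the rates in the data may differ.

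Members, gene lists and tests were chosen with earlier results of these data known. Members were named if they passed a test at a mean of at least 5 CPM and were among the 4 largest rises or falls of a comparison, had the most or fewest counts of their complex, passed with both nucleases or are tissue-restricted forms. Others named were chosen after their values were seen. Sequences are credited to RefSeq (GRCm38.p6). Levels per coding length and protein identity were not analysed here. The genotype is a coding change that gene counts do not check. Some single-gene results are not reported here.

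Replicate numbers were taken to pair libraries where deviations from group means correlated by over 0.1 in each pair. This held for KI cells across the media with MNase (0.563, 0.315 and 0.393) and across the nucleases.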

Additional observations from a re-analysis of the deposited data

Results flagged for a closer look

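The response of Cox5a to the medium differed between genotypes with MNase, by an interaction of -1.15 on the log2 scale (SE 0.20, adjusted p = 0.0249 in edgeR's quasi-likelihood test). In WT cells Cox5a had a log2 difference of -0.16 between LIF and LIF/2i, and in KI cells of -1.31. The RNase I libraries gave -0.32 and -0.62 for the same differences, and neither passed the test.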

How the results depend on the processing

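Of 1503 single-gene results under alternatives, 1266 kept their direction and side of the threshold, 237 kept the direction alone and 0 reversed. Counts of members past the threshold moved by over 1.5 times as follows. With replicates 1 and 2 alone, an alternative chosen after seeing the data, the MNase counts were 3 and 0 for genotype in LIF/2i and LIF, 1 and 2 for medium in WT and KI cells, and 0 for the interaction. Of all genes, 1.18%, 0.00795%, 4.24%, 1.97% and 0% were then higher and 0.874%, 0.0636%, 4.52%, 3.12% and 0% lower. Without KI replicate 1 in both media the MNase counts were 33 for genotype in LIF, 13 for medium in WT cells and 5 for the interaction. For medium in WT cells 15.8% of all genes were then higher and 16.5% lower. With both nucleases fitted together, medium in WT cells gave 12, and the RNase I comparisons took the joint values of 23, 17, 12, 11 and 1, to which MNase libraries contribute. That fit called 18.1% of all genes higher and 18.8% lower for medium in WT cells, 12.7% and 14% in KI cells, 14.2% and 12.6% for genotype in LIF/2i, 11.2% and 9.67% in LIF, and 0.774% and 1.24% for the interaction. Without a filter on low counts, medium in KI cells gave 7 with MNase and 2 with RNase I, and medium in WT cells 3 with RNase I. In these 3 fits, 6.23%, 2.49% and 7.32% of all genes were higher and 7.03%, 3.43% and 6.53% lower. DESeq2 gave 4 for the MNase interaction, 2 and 1 for medium in WT and KI cells with RNase I, and 3 for the difference between nucleases in LIF/2i. It called 0.664% of all genes higher and 1.02% lower for the MNase interaction, and 0.0314% and 0.471% for that difference between nucleases. For medium with RNase I its shares were 8.53% and 7.73% in WT and 3.3% and 3.52% in KI cells. Library totals gave 2 for medium in WT cells with RNase I.

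With the replicate block pairing the nucleases, their differences gave 13 members in LIF/2i, 3 in LIF and 1 for medium in KI cells. The block by replicate number gave 28, 19, 6, 12 and 1 with MNase against 27, 16, 7, 11 and 1 without it, and moved no other count by over 1.5 times. Only the KI groups are paired by number with MNase, and 5 of 12 MNase libraries correlated best with their own number.

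Leaving out each library in turn gave 15 to 33 members for genotype in LIF/2i, 7 to 20 for genotype in LIF, 1 to 11 for medium in WT cells, 5 to 21 for medium in KI cells and 0 to 2 for the interaction with MNase. With RNase I it gave 0 to 1 for medium in WT cells, 0 to 1 in KI cells and 0 for the other comparisons, and it gave 42 to 49 for RNase I against MNase. Thinned to the smallest library, MNase gave 18, 15, 6, 8 and 1. In these thinned fits, 11.9%, 6.78%, 9.36%, 6.17% and 0.107% of all genes were higher and 10%, 5.54%, 10.2%, 8.05% and 0.277% lower. The cause of these moves was not tested.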
